A study of Mus musculus with 2 samples.

Results

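Fibroblasts were the collagen-rich stromal cells of these mouse glioblastoma stem cell tumors. A barcode was taken as a fibroblast where it held at least 20 unique molecular identifiers (UMIs, each standing for 1 captured RNA molecule) of Col1a1, Col1a2, Col3a1 and Dcn together, with at least 3 of these genes detected. It also had to hold 0 UMIs of the pericyte genes Kcnj8 and Abcc9 and of the endothelial gene Cldn5, at most 3 UMIs of the macrophage genes C1qa, C1qb and C1qc, and at most 3 of the tumor genes Olig1 and Olig2. Selected on these UMI counts and on no other measure were 549 of 54574 barcodes past quality control, from 56943 barcodes in all. Of the 549, 356 had all 4 collagen and Dcn genes and 193 had 3 of them.

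The tumors were labelled orthotopic and, by the study's methods, were grown in the right striatum of female C57BL/6J mice, a few weeks old at purchase, from a single mouse glioblastoma stem cell line (mGSC) of the genotype Trp53+/- and Nf1+/-. Mice of both groups carried this same line and were gavaged daily for a week, either with vehicle or with Xevinapant, a mimetic of the mitochondrial protein SMAC that binds the inhibitor of apoptosis proteins cIAP1 (Birc2), cIAP2 (Birc3) and XIAP (Xiap). The question was what Xevinapant did to the tumor and its microenvironment, and here to the fibroblasts in it. Each group had 4 count matrices, 1 per mouse by the study's account, from fixed cells read through gene probes.

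Fibroblasts build and remodel connective tissue: they secrete fibrillar collagens and the proteoglycans that order them, crosslink the fibres and cut them with proteases. Normal brain tissue holds few of them, mainly in the meninges and around larger vessels. In tumors, activated fibroblasts can turn on contractile genes (myofibroblasts), make complement and chemokines, or take on the response to low oxygen, in which the transcription factor HIF-1 raises glucose transport and glycolysis.

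Several libraries described as separate mice were far closer to each other than the rest. In tumor cells, vehicle matrices 1 and 3, Xevinapant matrices 1 and 2, and Xevinapant matrices 3 and 4 were the most alike, with a median squared difference between 2 matrices, in units of the sampling variance, of 0.733, 3.14 and 3.83. The Xevinapant pairs were thus less alike than the vehicle pair, and likeness does not show that 2 matrices came from 1 mouse. Unjoined pairs of a group stood at 12.8 to 56.3. Counts of each alike pair were therefore summed, which left 3 vehicle samples (1 and 3, 2, 4) and 2 Xevinapant samples (1 and 2, 3 and 4), and values below are given in this order. No full barcode occurred in 2 matrices of a group. Between groups, 178 to 528 full barcodes occurred in the vehicle and the Xevinapant matrix of the same number, none of them a fibroblast in both. Each group was run as its own pool on its own batch date, so treatment, pool and date cannot be told apart. The labels name total RNA for one group and polyA RNA for the other.

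The vehicle samples held 55, 24 and 92 fibroblasts with 332642, 293367 and 489474 UMIs in sum, and the Xevinapant samples 262 and 116 fibroblasts with 2587480 and 1225648. The median fibroblast had 2940, 5035 and 3250 UMIs in vehicle and 5680 and 6467 in Xevinapant. Fibroblasts were thus both more numerous and more deeply read in the Xevinapant samples. The median mitochondrial share of their UMIs was 0.971%, 0.673% and 0.707% in vehicle and 0.369% and 0.470% in Xevinapant, without overlap between the groups. The part of depth and RNA quality in the differences below was not tested. Thinned counts and a limit of 5% on the mitochondrial share were run as alternatives. With that limit the fibroblast share differed between the groups by 1.37 percentage points.

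The 4 genes of the gate are described here without a test, since they chose the cells. Levels are given in CPM, the UMIs of a gene scaled to a common total of fibroblast UMIs per sample, with edgeR's TMM factors. Col1a1, a chain of type I collagen, had 63226, 62466 and 47196 CPM in vehicle and 73124 and 63417 CPM in Xevinapant. Col1a2, its partner chain, had 40667, 37983 and 30142 CPM against 40342 and 42406. Col3a1, type III collagen, had 31632, 26620 and 23666 CPM against 32456 and 34465. Vehicle 4 was the lowest sample for all 3 collagens. Dcn, the collagen-binding proteoglycan decorin, had 1213, 722 and 762 CPM against 1263 and 889, and was detected in 365 of the 549. In tumor cells the median levels over samples were 29.5 CPM for Col1a1 and 0.474 CPM for Dcn. Tumor cells were chosen with fewer than 20 UMIs of these 4 genes, so their low levels were set by selection. Pericytes, chosen without that limit, had a median sum of 66301 CPM for the 4 genes.

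Fibroblasts at the edge of the gate were few. 20 of the 549 held 20 to 24 UMIs of the 4 genes, beside 29 barcodes with 15 to 19 that met every other condition. The median fibroblast held 300 such UMIs, with a range of 20 to 13835. At the limit on tumor genes, 21 fibroblasts held 3 UMIs of Olig1 and Olig2 and 7 further barcodes held 4.

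Other fibroblast genes, which the gate did not use, were present in every sample. Fbln2, a matrix protein of fibroblasts, ranged from 1823 to 2918 CPM, Serpinf1, a secreted protein, from 848 to 1312, and Pdgfra, the receptor for PDGF-A, from 205 to 361. The myofibroblast genes Postn (3661 to 7855), Lrrc15 (480 to 1111) and Acta2 (454 to 938) were present in every sample as well. Over the list of 12 further fibroblast genes, the summed level was 13404 to 20544 CPM in fibroblasts against medians of 598 in tumor cells and 16295 in pericytes, so that this list does not separate fibroblasts from pericytes. The 4 gate genes, not limited in pericytes, summed there to a median of 66301 CPM, against 101765 to 147184 in fibroblasts. Whether the pericyte class holds fibroblasts was not tested. The myofibroblast list summed to 10989 to 15398 CPM in fibroblasts and 16037 in pericytes.

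Markers of the fibroblast layers of the brain coverings were mixed, with arachnoid genes low or missing and several dural and pial genes present. Of the 7 dural genes 5 averaged over 10 CPM, led by Mgp, an inhibitor of calcification, with 469 to 2944 CPM, and Smoc2, a matrix protein, with 152 to 477 CPM, and the list summed to 3569, 1232 and 2516 CPM in vehicle and 982 and 1177 CPM in Xevinapant against a median of 195 in tumor cells. The dural sums did not overlap between the groups, with vehicle 2 close to Xevinapant 3 and 4, while each of the 7 genes overlapped. Of the 6 pial genes, Ngfr and Lama1 averaged under 10 CPM, and S100a6, a calcium-binding protein, had 296 to 721 CPM. The pial list summed to 539 to 1067 CPM against 284 in tumor cells and 3893 in pericytes. The arachnoid transporter genes Slc47a1 and Slc22a2 were at 0 in all 5 samples, and 7 of the 9 arachnoid genes averaged under 10 CPM. Slc6a13, a transporter of pial and perivascular fibroblasts, also averaged under 10 CPM. Foxc1, Foxd1 and Zic1, transcription factors of the developing meninges, had at most 17.9, 3.67 and 7.94 CPM in any sample, and none passed the filter on low counts. Twist1, Prrx1 and Runx1, transcription factors of mesenchyme outside the brain as well, had lowest values of 95.3, 342 and 172 CPM.

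Markers of other cells were low for most lists. The 8 endothelial genes summed to 53.7 to 110 CPM in vehicle and 53.1 and 61.4 CPM in Xevinapant, with 7 of the 8 under 10 CPM on average and Cldn5 at 0 by the rule. The 9 pericyte genes summed to 466 to 788 and 607 to 629 CPM, with Kcnj8 and Abcc9 at 0 by the rule. The 10 macrophage or microglia genes summed to 315 to 440 and 370 to 401 CPM, with C1qa, C1qb and C1qc limited by the rule. The 5 choroid plexus or ependyma, 5 neuron and 5 skeletal muscle genes all averaged under 10 CPM. Tumor transcripts differed between the groups: 10 tumor glial genes summed to 885, 938 and 1308 CPM in vehicle and 508 and 727 CPM in Xevinapant, without overlap, against 6652 CPM in tumor cells. Olig1 and Olig2 are in this list, limited in fibroblasts and required in tumor cells, so the contrast with tumor cells was partly set by selection. The limit is a count of UMIs and allows a larger share in shallower barcodes, and vehicle fibroblasts were the shallower ones by median. The 7 smooth muscle genes summed to 1387 to 2060 CPM in vehicle and 1159 and 1866 CPM in Xevinapant, against 3649 in pericytes. One sample stood apart on each of 5 further lists. Bone or cartilage genes reached 14294 CPM in vehicle 2, from 842 to 2576 elsewhere, through Acan (6055 CPM) and Col2a1 (7748 CPM). The median sum of this list was 2696 CPM in tumor cells and 201 CPM in pericytes, so its genes were also tumor transcripts here. Perivascular fibroblast genes reached 4780 CPM in Xevinapant 1 and 2, from 1140 to 2114 elsewhere, and erythrocyte genes 228 CPM in the same sample, from 31.8 to 51.3 elsewhere. Neutrophil genes had 30.9 CPM in that sample and 0 to 3.98 elsewhere, and lymphocyte genes 47.8 CPM in vehicle 4 and 0 to 9.29 elsewhere.

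**Figure D1:**
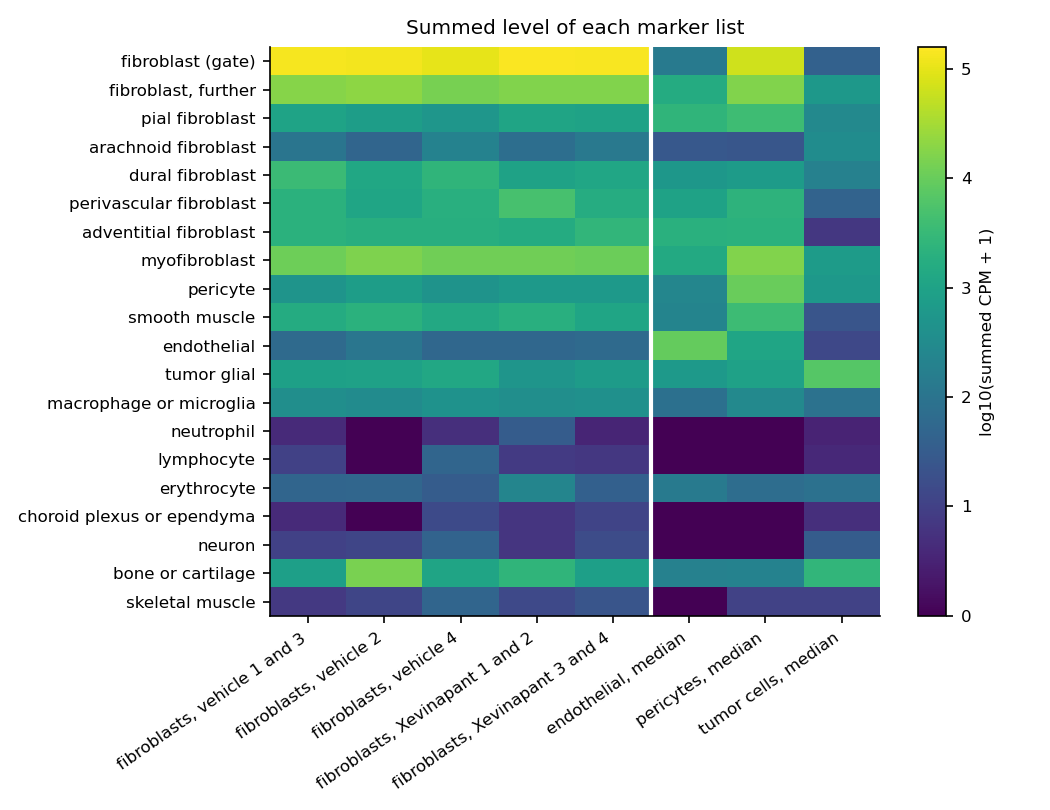
Summed level of each marker list (rows) in the fibroblasts of the 5 samples and in tumor cells, endothelial cells and pericytes, as the colour scale of log10(summed CPM + 1). The gate list and the further fibroblast list are high in all 5 fibroblast samples, while endothelial, neuron and choroid plexus lists are near the bottom of the scale.

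The fibroblasts carried RNA of the Hoxc genes, which were examined because Hoxc8 and Hoxc9 came up among the leading genes of a cluster below. Hox genes are transcription factors that set position along the body axis, and the forebrain and its coverings develop without them. The 9 Hoxc genes summed to 207, 227 and 446 CPM in vehicle fibroblasts and 331 and 366 CPM in Xevinapant fibroblasts. Levels in tumor cells were 0.215 to 0.692 CPM. The samples of the 2 groups overlapped, and every fibroblast sample lay far above every tumor sample. Hoxc6 had 89.8, 51.3 and 135 CPM against 96.9 and 112, and Hoxc10 24.8, 66.0 and 95.5 CPM against 63.9 and 67.2, while Hoxc12 and Hoxc13 had at most 3.32 CPM.

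A Hoxc UMI was present in 34.5%, 41.7% and 58.7% of vehicle fibroblasts and in 61.8% and 63.8% of Xevinapant fibroblasts. In tumor cells, which were read more deeply (medians of 18126 to 25438 UMIs), the share was 0.416% to 1.41%, read here as background. Pericytes, 47 barcodes chosen without a limit on the collagen and Dcn genes, had 157 to 408 CPM of Hoxc genes. The endothelial cells of a looser gate, 171 barcodes, had 0 to 3.22 CPM. The Hoxb genes differed in the same direction, with 47.6 to 87.9 CPM in fibroblasts and 0.0588 to 0.210 CPM in tumor cells. Hoxa genes did not: they summed to 146 to 203 CPM in fibroblasts and 287 to 336 CPM in tumor cells. Hoxb RNA was not particular to fibroblasts, with 68.4 to 151 CPM in the endothelial cells of the looser gate and 100.5 to 268 CPM in pericytes. Hoxd genes had 13.9 to 40.2 CPM in fibroblasts, 0.356 to 2.13 CPM in tumor cells and 38.7 to 86.8 CPM in those endothelial cells. The study also grew this line in the flank of other mice. No test was run on these genes, and where these stromal cells came from was not tested.

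Fibroblasts fell into 7 clusters when the 12 genes of the rule were left out. The leading genes describe the clusters and were not tested. Cluster 3, 101 barcodes, was led by Eln (elastin, 5387 CPM on average against 213 in the other fibroblasts), Penk, Tnxb, Pi16 (749 against 56.0) and Clec3b. All 7 measured genes of the adventitial list were detected in at least 10% of its barcodes, and with Pi16 and Clec3b among its leading genes it was adventitial fibroblast-like. Adventitial fibroblasts form the outer coat of vessels and are marked by Pi16. At a lower and a higher resolution of the clustering, 96.04% and 95.05% of its barcodes stayed in 1 cluster.

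Cluster 2, 116 barcodes, was led by Actg2, a smooth muscle actin (240 against 20.1 CPM), by Mmp9 and Col7a1, and by the cell cycle genes Hist1h1a, Fbxo5 and Ncapg. All 13 myofibroblast genes were detected in at least 10% of its barcodes, summing to 15716 CPM. It got no name of its own, since clusters 1 and 3 to 6 also had 10 or 11 of the 13. The smooth muscle list, which shares Acta2, Tagln, Cnn1 and Actg2 with the myofibroblast list, was also highest in cluster 2. There 6 of its 7 genes reached that detection (2 to 4 in other clusters), summing to 3264 CPM (at most 1387 in others). At the higher resolution the largest piece of cluster 2 held 44.0% of its barcodes.

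Cluster 4, 72 barcodes and the most deeply read with a median of 12046 UMIs, was led by Serpinb2, Gipr, Nos2 (inducible nitric oxide synthase), Ptgs2 (cyclooxygenase-2), Pgf (placental growth factor) and Stc1 (278 against 26.2 CPM). Genes of the low-oxygen response were also high in it. Slc16a3, the lactate exporter, averaged 1359 CPM in it and at most 418 CPM in any other cluster. Slc2a1, the glucose transporter GLUT1, averaged 2186 CPM and at most 818 elsewhere, and Vegfa 1865 CPM and at most 812 elsewhere. No list fixed for cell types named this cluster. It made up 3.64%, 0% and 8.70% of vehicle fibroblasts and 18.3% and 12.1% of Xevinapant fibroblasts. Those shares are a description, since genes that differed between the groups also shaped the clusters, and they rest on 2, 0 and 8 vehicle and 48 and 14 Xevinapant barcodes.

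Cluster 1 and clusters 5 to 7 got no name either. Cluster 1, 141 barcodes, had a median of 1244 UMIs and was led by Tgfbi, Cyba and Apoe. It had the highest sums of macrophage or microglia genes (1069 CPM on average, at most 429 in other clusters), erythrocyte genes (1809, at most 184) and neutrophil genes (352, at most 6.87). These are means over shallow barcodes. Of the 3 lists, 3 of 10, 2 of 5 and 0 of 5 genes were detected in at least 10% of its barcodes. In cluster 2, 6 of the 10 macrophage or microglia genes were. In cluster 1, 8 barcodes were called doublets, and treatment comparisons were also repeated without this cluster. Cluster 5, 61 barcodes, was led by the cartilage genes Acan, Col2a1 and Col11a2 and the glial genes Gfap and Fabp7, which go against its fibroblast label. Of its barcodes 9 were called doublets, the most of any cluster. The median share of gate genes in it was 2.25% of UMIs, against 16.3% in cluster 3, and it had 22683 CPM of Igf2, whose median in tumor cells was 32377 CPM. It made up 20%, 29.2% and 17.4% of vehicle and 4.58% and 12.9% of Xevinapant fibroblasts, so treatment comparisons were repeated without it. Cluster 6, 50 barcodes, was led by Cstad and Snhg11, with Hoxc8 and Hoxc9 among its leading genes.

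Cluster 7 held 8 barcodes, 7 of them in Xevinapant 1 and 2 and 1 in Xevinapant 3 and 4. It was led by Upk3b, Slpi, Gpm6a, Msln (mesothelin), Upk1b and Lrrn4, with Wt1 at 974 CPM and Krt18 at 348 CPM, which was 0 in every other cluster. These are genes of mesothelium, the lining of body cavities, for which no list was fixed, and its gate genes were mixed. Dcn averaged 6868 CPM, the highest of any cluster (at most 2053 elsewhere), and Col3a1 3419 CPM, both in 100% of the barcodes, while Col1a1 averaged 766 CPM and Postn 0. The 8 barcodes held 306 of 306 Upk3b UMIs, 95.5% of Slpi UMIs and 49.2% of C3 UMIs of all 549, so values of C3 and Slpi are also given without them.

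**Figure D2:**
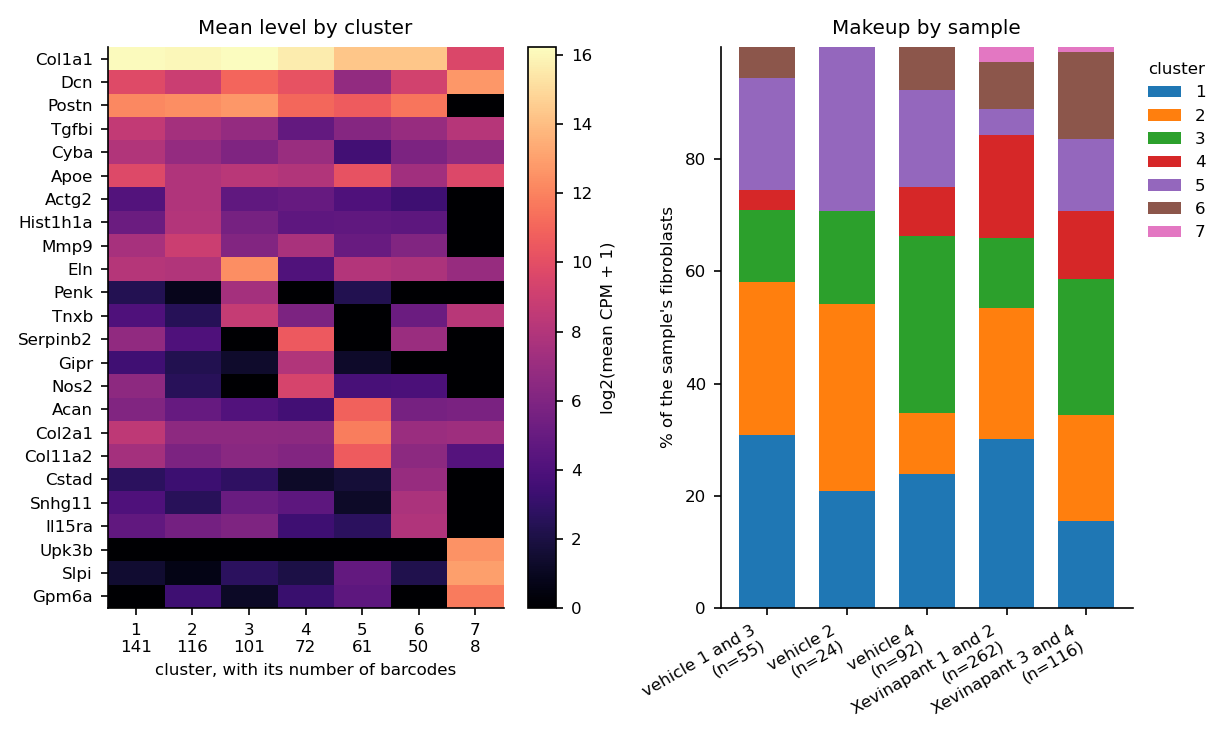
Left, mean level of leading genes in each fibroblast cluster as log2(mean CPM + 1), with the number of barcodes under each cluster. Right, the makeup of each sample's fibroblasts in percent: cluster 4 takes 0 to 8.70% of vehicle and 12.1% and 18.3% of Xevinapant fibroblasts.

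Fibroblasts made up 0.612%, 0.336% and 0.643% of barcodes in the vehicle samples and 2.95% and 0.763% in the Xevinapant samples. Both Xevinapant samples lay above all vehicle samples, but Xevinapant 3 and 4 lay close to them and Xevinapant 1 and 2 far away. The means differed by 1.33 percentage points (0.530% ± 0.169, SD, n = 3, and 1.86% ± 1.55, SD, n = 2), with p = 0.1 in an exact two-sided permutation test, the smallest p this design allows. The size rested on 1 sample: without Xevinapant 1 and 2 the difference was 0.233 percentage points. By matrix, the vehicle shares were 0.738% (95% exact binomial interval 0.505 to 1.04, counting error only), 0.336% (0.2156 to 0.5001), 0.485% (0.308 to 0.727) and 0.643% (0.519 to 0.788). The Xevinapant shares were 2.85% (2.38 to 3.39), 3.06% (2.57 to 3.605), 0.678% (0.505 to 0.891) and 0.848% (0.655 to 1.08). Counted as 4 mice a group, the groups overlapped and the exact p was 0.0571. With only barcodes of at least 5000 UMIs kept, each thinned to 5000 and gated at 10 UMIs, the difference was 1.497 percentage points. That setting leaves out shallow barcodes, and vehicle fibroblasts had the lower median depths, so it cannot show the part of depth. A share of barcodes also moves with the number of other cells recovered.

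**Figure D3:**
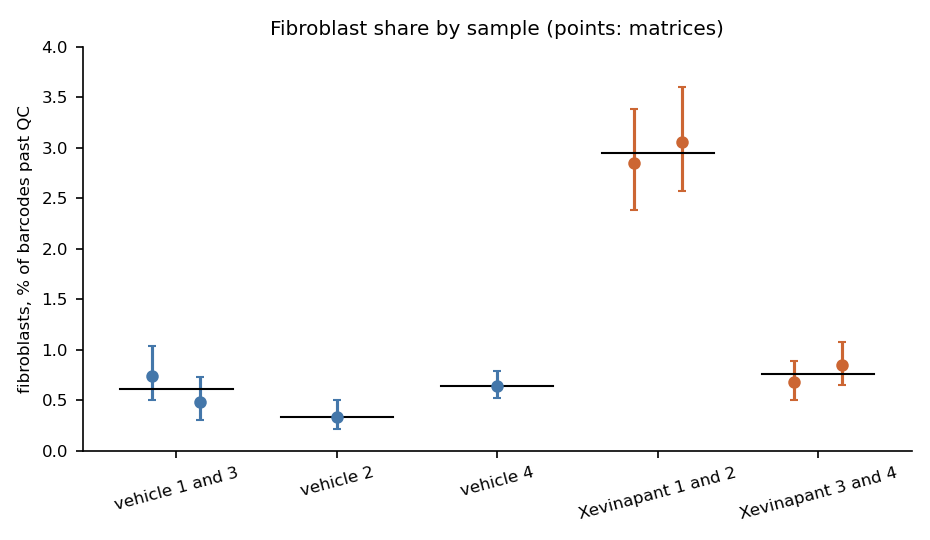
Fibroblasts as percent of barcodes past quality control in each of the 5 samples (bars), with each matrix as a point and its 95% exact binomial interval. The 2 matrices of Xevinapant 1 and 2 stand at 2.85% and 3.06%, and all others at 0.336% to 0.848%.

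Gene levels in fibroblasts were compared between the groups with edgeR's quasi-likelihood test on counts summed per sample, with Benjamini-Hochberg adjustment. No gene passed: 0 of 8629 tested were higher and 0 lower at an adjusted p of 0.05 (0% of all genes each), and the smallest adjusted p was 0.151. At an unadjusted p under 0.05 there were 595 genes (6.9%), 257 higher (2.98%) and 338 lower (3.92%). DESeq2, run as an alternative, called 7 higher (0.0811% of 8628) and 9 lower (0.104%). In counts simulated from these samples (8334 genes run), the edgeR test recovered 96% of genes changed by 2 on the log2 scale and 19% of genes changed by 1. Changes of the smaller size would thus mostly be missed. Changed genes were drawn only from those above a floor of mean CPM, so recovery at low levels was not measured. In that run 11 unchanged genes were called. Labels do not tie each matrix to its own animal, so p-values measure the spread between these samples. All fold changes below are log2 values, Xevinapant relative to vehicle. Those of single genes in this main fit mostly carry their standard error, and none of them passed the test. Values from alternatives are named with their setting. Functional lists are described by their counts beside the same count over all genes, of which 10.7% were higher without overlap in both Xevinapant samples and 10.8% lower, with a median log2 fold change of -0.01.

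Genes of the response to low oxygen were mostly positive. Of 43 genes of HIF targets and glycolysis, 39 were tested, and their median log2 fold change was 0.61. 33 of the 39 were positive (84.6%, against 48.4% of all genes) and 15 were higher in both Xevinapant samples than in all vehicle samples (38.5%, against 10.7%), while 0 were lower without overlap. No member passed the adjusted test in edgeR, while DESeq2 called Slc16a3. Over the alternatives the median ranged from 0.31 to 0.91. The lowest value came without cluster 4, whose cells were high in these genes and made up more of the Xevinapant fibroblasts. The clusters were built partly on these genes, so that this fit leaves out cells by the measure itself. Without cluster 4 the log2 fold changes were 1.13 for Slc16a3, 1.02 for Slc2a1, 1.29 for Car9 and 1.23 for Adm, still without overlap, and 0.18 for Stc1 and 0.62 for Ndrg1, which overlapped. Adm, the hormone adrenomedullin, had 61.9, 66.0 and 414 CPM in vehicle and 488 and 472 CPM in Xevinapant (1.36 ± 0.65), and without vehicle 4, the sample near Xevinapant, it passed in edgeR (2.91, adjusted p = 0.0260).

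Slc16a3, which exports lactate, had 158, 176 and 271 CPM in vehicle and 781 and 455 CPM in Xevinapant, a log2 fold change of 1.61 ± 0.36 (edgeR adjusted p = 0.324, DESeq2 adjusted p = 0.0393). Slc2a1, which imports glucose, had 195, 487 and 545 CPM against 1169 and 725 (1.21 ± 0.43, edgeR adjusted p = 0.609). For both transporters the samples of the groups did not overlap and Xevinapant 1 and 2 was the highest. Stc1, the secreted hormone stanniocalcin, had 34.0, 14.7 and 45.8 CPM against 138 and 68.0 (1.63 ± 0.41, and 1.04 without Xevinapant 1 and 2). Ndrg1 had 99.1, 238 and 163 CPM against 516 and 259 (1.22 ± 0.41). The membrane carbonic anhydrase Car9, which moves acid out of cells, had 9.29, 55.0 and 35.8 CPM against 95.7 and 73.0 (1.37 ± 0.42). The groups were again apart for these 3 genes, by little for Ndrg1. Adm, Slc16a3, Stc1, Ndrg1 and Car9 were chosen after their values were seen. Other members overlapped, and 2 are given to show this: Pgk1, a glycolytic enzyme, had 80.5, 286 and 167 CPM against 125 and 127, and Hk2, hexokinase 2, 27.9, 176 and 127 CPM against 166 and 169.

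HIF-1 binds DNA at a core of the letters ACGTG. The promoters of Slc16a3, Slc2a1 and Car9, 3 members without overlap, are shown because each holds these letters, in capitals below, read as ACGTG or on the other strand as CACGT. They are RefSeq sequences of GRCm38.p6 on the plus strand, from 250 bases before to 50 after the start of the gene, at chr11:120948817-120949116 for Slc16a3, chr4:119108495-119108794 for Slc2a1 and chr4:43506776-43507075 for Car9.
Slc16a3: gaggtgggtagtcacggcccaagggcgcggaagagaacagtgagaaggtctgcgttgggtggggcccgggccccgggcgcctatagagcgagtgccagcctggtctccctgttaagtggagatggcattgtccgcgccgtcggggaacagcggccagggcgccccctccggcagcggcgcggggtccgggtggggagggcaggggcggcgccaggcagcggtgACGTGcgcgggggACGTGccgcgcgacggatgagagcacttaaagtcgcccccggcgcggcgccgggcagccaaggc
Slc2a1: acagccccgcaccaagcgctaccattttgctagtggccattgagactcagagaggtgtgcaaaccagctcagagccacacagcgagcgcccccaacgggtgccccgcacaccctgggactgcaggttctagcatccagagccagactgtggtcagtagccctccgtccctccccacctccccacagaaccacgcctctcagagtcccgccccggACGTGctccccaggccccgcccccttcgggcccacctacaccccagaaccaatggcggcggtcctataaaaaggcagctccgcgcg
Car9: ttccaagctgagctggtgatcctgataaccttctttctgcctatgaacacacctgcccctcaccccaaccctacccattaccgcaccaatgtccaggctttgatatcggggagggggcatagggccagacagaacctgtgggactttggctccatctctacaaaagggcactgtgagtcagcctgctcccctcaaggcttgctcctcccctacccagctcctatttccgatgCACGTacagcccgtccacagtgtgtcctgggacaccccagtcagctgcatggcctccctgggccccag
The Slc16a3 promoter holds 2 matches and the others 1 each. Among all 32851 promoters in the table, 19.6% hold the letters on either strand, the palindrome CACGTG counted among them. Of the 39 tested list genes 30 had a promoter there, 41 in all, and 56.1% of these hold the letters. For the 15 without overlap, 10 had 12 promoters, of which 58.3% hold them. The list was written from known HIF targets and the match is a description of letters, not of a binding site.

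**Figure D4:**
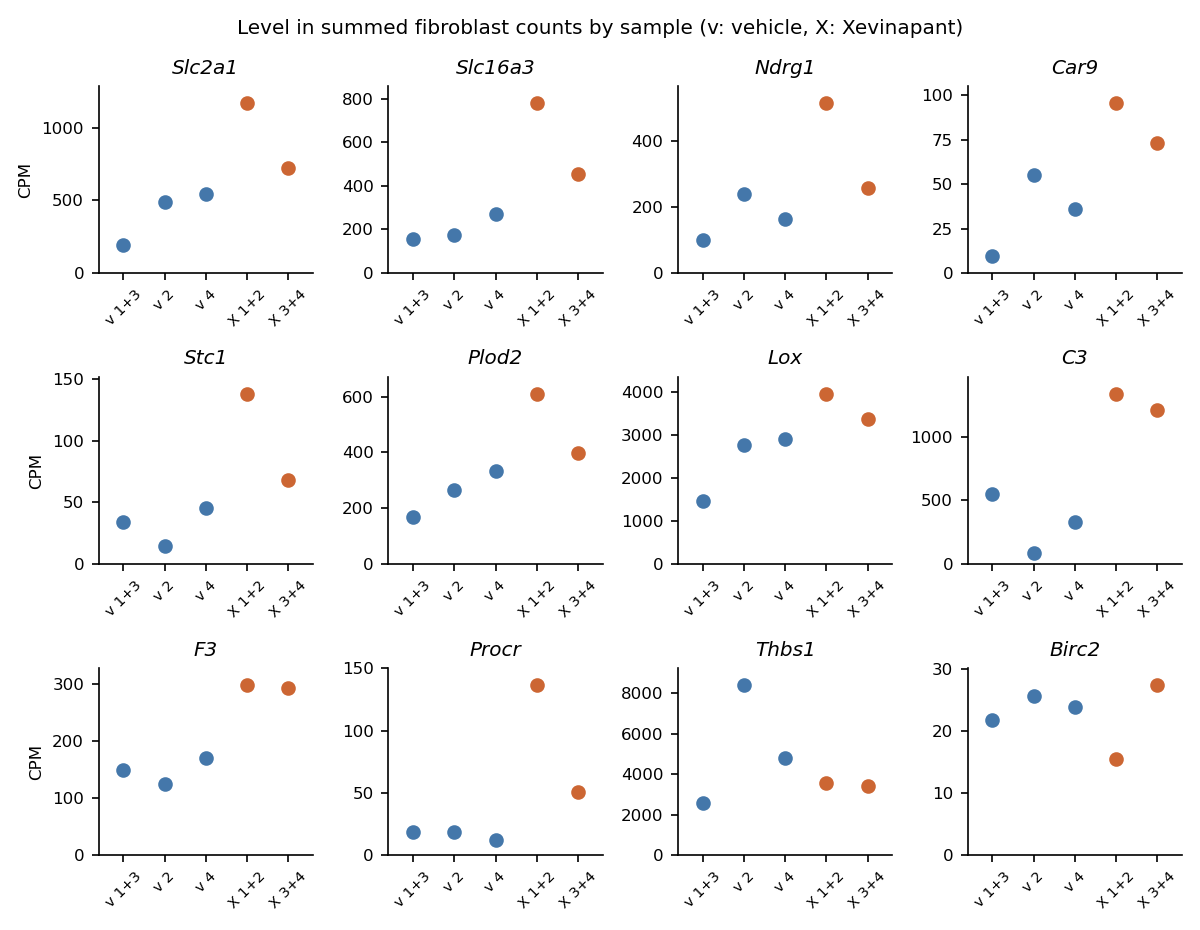
Level in CPM of named genes in the summed fibroblast counts of each sample, with a panel and its own axis from 0 per gene. Slc16a3 stands at 158 to 271 CPM in vehicle and 455 and 781 CPM in Xevinapant, while Thbs1 and Birc2 overlap between the groups.

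Complement and coagulation genes had a similar median. Of 12 tested, 11 were positive, 7 were higher without overlap (58.3%) and 0 lower, with a median of 0.61. C3, the central complement protein, had 548, 88.0 and 326 CPM against 1334 and 1205 (1.98 ± 0.55, edgeR adjusted p = 0.483). Serping1, the inhibitor of C1, had 746, 744 and 593 CPM against 943 and 954 (0.45 ± 0.30). The groups did not overlap for either. Without the 8 barcodes of cluster 7, C3 had 546, 87.8 and 325 CPM against 501 and 842, so that the groups overlapped, and its log2 fold change was 1.06 (edgeR adjusted p = 0.745). That of Serping1 was then 0.40. For C3 with all barcodes it was 2.58 without vehicle 1 and 3. Another pair of genes was chosen after the values were seen. F3, tissue factor, had 149, 125 and 169 CPM against 297 and 293 (0.99 ± 0.27), and Procr, the receptor of protein C, had 18.6, 18.3 and 11.9 CPM against 137 and 50.6 (2.60 ± 0.49, edgeR adjusted p = 0.276). For both the 2 Xevinapant samples were the highest. DESeq2 called Procr (adjusted p = 0.0393), and in edgeR it was past the threshold without Xevinapant 3 and 4 (3.12, adjusted p = 0.00852) and at 1.68 without Xevinapant 1 and 2. Without cluster 4 Procr was at 1.37. The median of the list was 0.40 without cluster 7, 0.37 without cluster 5, and 0.30 to 1.02 over all alternatives.

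Inflammatory fibroblast genes had a median of 0.63, with 5 of 20 higher without overlap (25%) and 0 lower. Rarres2, the chemoattractant chemerin, had 161, 645 and 237 CPM against 2120 and 740 (2.05 ± 0.59). The groups were apart, with vehicle 2 near Xevinapant 3 and 4. The log2 fold change of Rarres2 was 1.102 without Xevinapant 1 and 2, 2.84 without vehicle 2 and 1.31 without cluster 4. Outside the naming rule, Cxcl12, a chemokine that retains leukocytes, had 625, 88.0 and 133 CPM against 579 and 236, and Ccl2, which draws monocytes, 27.9, 205 and 73.6 CPM against 140 and 70.5. Both overlapped. Without Xevinapant 1 and 2 the median of the list was 0.13, so most of its size came from that sample.

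Metallothionein and iron genes had a median of 0.69 over 10 tested, with 3 higher (30%) and 1 lower (10%) without overlap. Over all genes these shares were 10.7% and 10.8%. Mt2 and Mt1 bind zinc and copper. Mt2 had 362, 737 and 937 CPM against 2752 and 1003 (1.47 ± 0.49), and Mt1 378, 1254 and 1003 CPM against 2002 and 1096 (0.82 ± 0.48). Xevinapant 1 and 2 was high for both genes, and Mt1 overlapped. Without that sample Mt2 was at 0.57 and the median of the list at 0.17. Without cluster 4 Mt2 was at 0.68, Mt1 at 0.03 and the median at -0.04.

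Collagens outside the gate and proteoglycans had medians below that of all genes, and basement membrane genes a median above it. The most abundant collagens are genes of the gate, which chose the cells and were not tested. Of these, Col1a1 and Col3a1 were slightly higher in both Xevinapant samples than in all vehicle samples. Col1a2 and the proteoglycan gene Dcn overlapped. Of 12 fibrillar and network collagens, which include no gene of the gate, 10 were negative, with a median of -0.19. Without overlap 0 were higher and 2 lower (16.7%, against 10.8% of all genes). Col5a1, a chain of type V collagen, had 4012, 5655 and 3348 CPM against 4256 and 3905, and Col6a2, of type VI, 4247, 4358 and 3266 CPM against 3857 and 3883. Both overlapped, at -0.09 ± 0.35 and -0.03 ± 0.33. Of 13 basement membrane genes 1 was higher without overlap (7.69%, against 10.7% of all genes). Their median of 0.09 turned to -0.04 without vehicle 4, -0.07 without cluster 5 and -0.16 with 0 UMIs of C1q and Olig genes allowed. Hspg2 (perlecan) was at 0.30 ± 0.33 and Col4a1 at 0.02 ± 0.51. Of 23 proteoglycans and matrix glycoproteins 2 were higher (8.70%) and 4 lower (17.4%) without overlap, at a median of -0.25. Sparc ranged from 14142 to 24293 CPM (0.01 ± 0.36). Fn1, fibronectin, had 19986 CPM in vehicle 2 and 8175 to 11452 CPM elsewhere (-0.31 ± 0.42, and 0.14 without vehicle 2).

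Enzymes that process and crosslink collagen were mostly positive. Of 21 tested, 18 were positive and 6 higher without overlap (28.6%), with a median of 0.32. Lox, which crosslinks collagen, had 1476, 2778 and 2914 CPM against 3964 and 3381 (0.62 ± 0.37). Plod2, a lysyl hydroxylase that is also a HIF target, had 167, 264 and 334 CPM against 610 and 399 (0.98 ± 0.36), and was chosen after its values were seen. The groups were apart for both. Serpinh1, the collagen chaperone, overlapped at 5049 to 8199 CPM (0.32 ± 0.33), and Loxl2 likewise (-0.22 ± 0.46). Without cluster 5 the median of the list was 0.11. Without cluster 4 it was 0.18, with Lox at 0.07 and Plod2 at 0.36.

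Among 19 matrix proteases and inhibitors, 2 were higher (10.5%, against 10.7% of all genes) and 1 lower (5.26%, against 10.8%) without overlap, with a median of 0.21. This median turned negative without Xevinapant 1 and 2 (-0.15), Xevinapant 3 and 4 (-0.06), vehicle 4 (-0.09) or cluster 5 (-0.11), and with 0 UMIs of C1q and Olig genes allowed (-0.21). Mmp14, a membrane protease, had 931 to 1904 CPM in vehicle and 900 to 1151 in Xevinapant (-0.37 ± 0.38). Thbs1, thrombospondin-1, a matrix protein that activates TGF-beta and is named by the study's text, had 2572, 8412 and 4816 CPM against 3552 and 3399 (-0.60 ± 0.47, edgeR adjusted p = 0.833). Both Xevinapant samples lay inside the vehicle range. By the mean CPM per barcode, Thbs1 was among the 11 of 49 genes whose fold change moved furthest. The 21 genes of TGF-beta and CCN proteins had a median of -0.16, with 4 higher and 2 lower without overlap. It turned to 0.10 without vehicle 4 and to 0.11 by the mean CPM per barcode.

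**Figure D5:**
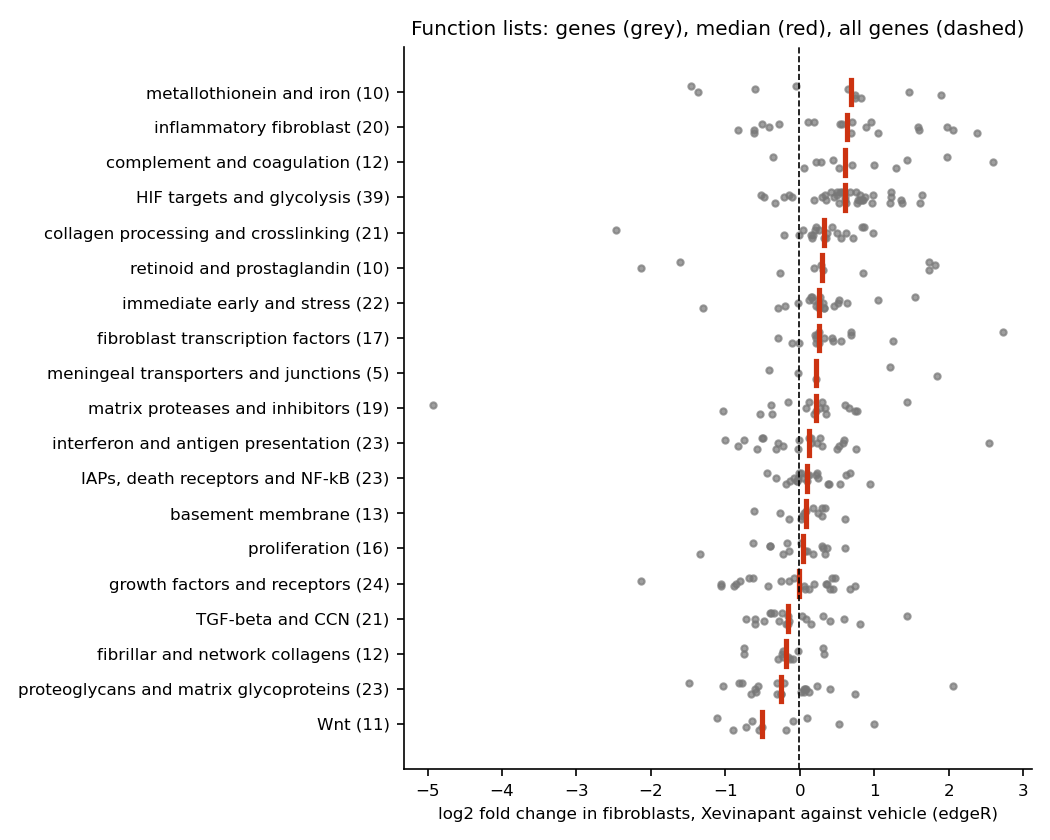
Log2 fold change in fibroblasts, Xevinapant relative to vehicle (edgeR), of each tested gene of the 19 functional lists (grey), the list's median (red) and the median of all 8629 genes (dashed). Medians run from -0.52 (Wnt) to 0.69 (metallothionein and iron), with HIF targets and glycolysis and complement and coagulation at 0.61.

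The targets of Xevinapant overlapped between the groups in fibroblasts. Birc2 had 21.7, 25.7 and 23.9 CPM against 15.5 and 27.4 (-0.19 ± 0.44), Birc3 40.2, 40.3 and 31.8 CPM against 36.8 and 32.3 (-0.08 ± 0.30), and Xiap 9.29, 18.3 and 9.95 CPM against 8.77 and 15.8, too low to be tested. Birc2 turned to 0.21 without Xevinapant 1 and 2, and Birc3 to 0.01 without Xevinapant 3 and 4, while Birc3 was at -0.75 with counts thinned to equal totals. Xevinapant acts on the proteins, which were not measured. The 23 genes of the inhibitor of apoptosis, death receptor and NF-kB list had a median of 0.09. Without overlap 4 were higher (17.4%, against 10.7% of all genes) and 1 lower (4.35%, against 10.8%). Tnfrsf1a, the TNF receptor, was at -0.01 ± 0.30, and Tnfrsf12a, the receptor of the cytokine TWEAK, at 0.38 ± 0.34. The 23 interferon and antigen presentation genes had a median of 0.12 (-0.03 without vehicle 2, and -0.02 without cluster 5 or with counts thinned to equal totals), with Bst2 at -0.01 ± 0.33 and Ifitm3 at 0.30 ± 0.38.

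Growth factors and their receptors (24 genes) had a median of -0.01, which turned positive in 10 alternatives, to at most 0.18. In that list Igf2, a growth factor, had 10673, 7484 and 5744 CPM against 2450 and 6159 (-0.89 ± 0.46, from -1.69 without Xevinapant 3 and 4 to -0.37 without Xevinapant 1 and 2). Its groups overlapped. Its median in tumor cells was 32377 CPM and the tumor glial sums above were also lower in Xevinapant, and the part of tumor RNA in its values was not tested. Igfbp7, a secreted binding protein of growth factors, was at -0.14 ± 0.33. The 11 Wnt genes had a median of -0.52, which turned to 0.04 without Xevinapant 1 and 2 and to 0.20 by the mean CPM per barcode, and was -0.08 without vehicle 1 and 3. Sfrp2, a Wnt antagonist, ranged from 194 to 2761 CPM in vehicle alone (-0.65 ± 0.78, and 0.64 without vehicle 1 and 3). Sfrp1, a related antagonist, was at -0.73 ± 0.58, at -0.08 without vehicle 1 and 3, and at 0.92 by the mean CPM per barcode. Of 10 retinoid and prostaglandin genes 3 were higher without overlap (30%, against 10.7% of all genes). Crabp1, which binds retinoic acid in the cell, had 92.9, 139 and 29.9 CPM against 220 and 338 (1.74 ± 0.47), and the groups were apart. It was at 0.29 with 0 UMIs of C1q and Olig genes allowed. Cyp26b1, which breaks retinoic acid down, had 858 CPM in vehicle 2 and 5.97 to 130 CPM elsewhere (-2.14 ± 1.33). Its direction rested on that sample, with 0.49 without vehicle 2 and 0.24 without cluster 5.

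Gja1, the gap junction protein connexin 43, had 223, 154 and 261 CPM against 1112 and 413 (1.84 ± 0.43, edgeR adjusted p = 0.356, 0.96 without Xevinapant 1 and 2, and 0.91 without cluster 4). It was apart between the groups, in a list of meningeal transporters and junctions of which 5 of 22 could be tested. Proliferation genes (16 tested) had a median of 0.05, which turned negative in 9 alternatives, to -0.55 by the mean CPM per barcode, with Mki67 at 147 to 243 CPM in vehicle and 131 to 180 in Xevinapant (-0.23 ± 0.31) and Cdkn1a, an inhibitor of the cell cycle, at -0.40 ± 0.45 (0.21 without vehicle 2). Immediate early and stress genes (22 tested) had a median of 0.26, with Hsp90b1 at 0.31 ± 0.33 and Ier3 at 0.63 ± 0.52 (-0.07 without cluster 4). Of 17 fibroblast transcription factors 14 were positive (82.4%, against 48.4% of all genes). Without overlap 3 were higher (17.6%, against 10.7%), at a median of 0.26. Prrx1 had 344, 425 and 342 CPM against 610 and 471 (0.55 ± 0.30), and Zeb2 overlapped (0.26 ± 0.35). Osr1, chosen after its values were seen, had 6.19, 0 and 13.9 CPM against 43.0 and 66.3 (2.73 ± 0.56, and 3.96 without vehicle 4), and the groups were apart for Prrx1 and Osr1.

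The genes with the smallest p-values, chosen after their values were seen, included some that rest on few cells. Upk3b had 0 UMIs in the 3 vehicle samples and 107 and 41.5 CPM in Xevinapant. All of it lay in the 8 barcodes of cluster 7, 7 in Xevinapant 1 and 2 and 1 in Xevinapant 3 and 4. With so few barcodes no bound on its fold change is given. Slpi, a protease inhibitor, had 6.19, 0 and 5.97 CPM against 155 and 59.7, and 25 fibroblasts held a UMI of it. Outside cluster 7 it had 2, 0 and 3 UMIs in vehicle and 8 and 7 in Xevinapant, too few to pass the filter of the treatment test in fibroblasts. The comparison of Slpi with tumor cells below has its own filter and rests on the same few fibroblast UMIs. Hmga2, a chromatin protein of growing mesenchyme, had 18.6, 69.6 and 31.8 CPM against 193 and 203 (2.37 ± 0.37, edgeR adjusted p = 0.151), from 117 fibroblasts, and was at 1.37 without cluster 5. Ecrg4, a secreted peptide precursor, was lower, with 235, 330 and 145 CPM against 48.5 and 54.7 (-2.18 ± 0.36, edgeR adjusted p = 0.151), from 99 fibroblasts. Hmga2 and Ecrg4 were apart between the groups. DESeq2 called both, and Upk3b and Slpi, among its 16 genes. In edgeR, Upk3b and Slpi were past the threshold without Xevinapant 3 and 4 and without cluster 5, and Ecrg4 without vehicle 4, without cluster 5 and with each matrix as 1 mouse.

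Against other cells of the same tumors, the treatment difference of few genes differed. The difference between fibroblasts and tumor cells (24390 barcodes) was past an edgeR adjusted p of 0.05 for 5 of 14181 genes, 1 higher in fibroblasts (0.00705%) and 4 lower (0.0282%), and none of them belonged to the HIF list. Without cluster 7 Slpi was lost (adjusted p = 1 in edgeR) and 8 genes were called. Without cluster 5 Slc1a2, Anxa8 and Meltf were lost, with no fibroblast UMI of Meltf left. In that fit 36 of 14094 genes were called, 13 higher in fibroblasts and 23 lower, and none of the 36 was of the HIF list. The smallest adjusted p-values were those of Mgp (difference of -3.84, edgeR adjusted p = 2.83e-07) and Dkk3 (-3.46, edgeR adjusted p = 1.71e-06), both lower in fibroblasts. Among those higher were Pgf (1.90, edgeR adjusted p = 0.00247) and Fam162a (1.60, edgeR adjusted p = 0.0277), which low oxygen is also known to raise. Pgf and Fam162a were picked after the values were seen. Without cluster 1 Slc1a2 and Meltf were lost and 3 were called, and without cluster 4 all 5 were held among 8. Ccn3 was called in each of these fits. The median log2 fold change of the 39 HIF genes in tumor cells was 0.24, beside 0.61 in fibroblasts. Slc16a3 had 0.93 in tumor cells beside 1.61 in fibroblasts, with an edgeR adjusted p of 0.875 for the difference. In endothelial cells (77 barcodes) 0 of 7201 genes differed in edgeR, with 377 at an unadjusted p under 0.05. With a looser gate (171 barcodes) 6 of 9844 did, 1 higher in fibroblasts (0.0102%) and 5 lower (0.0508%). The HIF genes in these endothelial cells had a median of 0.97 over 38 genes. Without cluster 5, Loxl2 of the HIF list was past the threshold at this gate, lower in fibroblasts (difference of -3.02, edgeR adjusted p = 0.0426). Pericytes were not compared, since vehicle 2 held 5 of them.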

How the data were processed

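For each group the authors deposited 4 matrices of UMI counts for 19059 genes, unnormalized, made with Cell Ranger (7.1.0 in the matrix headers, an older version in the labels) against mm10. The labels name one library per group and do not tie a matrix to a mouse. The word Vehicle stands in the names of the Xevinapant matrices, and the label was followed. Cells were kept at 200 genes or more, at most 10% mitochondrial UMIs and a ratio of log10 genes to log10 UMIs of at least 0.8. A single gate on raw counts then chose fibroblasts, and doublets were not removed from the main set (removing the highest Scrublet scores, 0.8% per 1000 barcodes, was an alternative).

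Alike matrices were joined into 5 samples, in place of the 4 mice per group the tests were designed for. Counts were summed per sample and tested in edgeR 4.0.16 (R 4.3.3) with TMM factors, its filter on low counts and Benjamini-Hochberg adjustment at 0.05; the 12 genes of the rule were left out of counts over genes. Shares were compared by exact permutation over samples. Clusters used scanpy 1.11.5 (Leiden, igraph 0.11.9, resolution 0.5, with 0.3 and 1 as checks) on 2000 variable genes, 20 components and 15 neighbours, and a cluster's leading genes are the 10 of highest fold found in at least 20% of its barcodes. Other cells were chosen by gates on their own markers. Tumor and endothelial cells also had to hold fewer than 20 UMIs of the 4 gate genes, while pericytes had no such limit. Intervals cover counting error only.

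Named are the genes of the rule, list members past the threshold or else the 2 of highest mean CPM per functional list, markers highest or near 0, the drug targets and Thbs1. Where a gene was chosen otherwise the text says so. Some named genes are not reported here. The members and lists were chosen with earlier results of these data known. Alternatives were the filters, gates, scalings, thinning, DESeq2 1.42.0, limma 3.58.1 on the mean CPM per barcode (log2 with a pseudocount of 1), a block on the matrix number and each sample left out. A looser endothelial gate and leaving out clusters 1, 4, 5 and 7 were added after seeing the data. The edgeR script was tested on simulated data with 8334 genes, where 11 unchanged genes were called. Ly6c1 and Bglap were not in the gene panel. Promoters came from RefSeq.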

Additional observations from a re-analysis of the deposited data

Results flagged for a closer look

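The treatment difference (log2 fold change, Xevinapant relative to vehicle) in fibroblasts differed from that in tumor cells of the same tumors, at an edgeR adjusted p of 0.05 for the interaction, in 5 genes. Slpi differed by 4.24, with 4.55 in fibroblasts and 0.18 in tumor cells, but 95.5% of its fibroblast UMIs lay in the 8 barcodes of cluster 7, and without them the difference was -0.16 (edgeR adjusted p = 1). The glutamate transporter Slc1a2 differed by -2.38 (-2.15 beside 0.28), and Ccn3, a matricellular protein, by -2.83 (-0.28 beside 2.64). Anxa8 differed by -7.29 and Meltf by -9.16. UMIs of Meltf lay in 5 fibroblasts and of Anxa8 in 20, so that these sizes depend on the prior count of the fit and are no bound. Without cluster 5, led by cartilage and glial genes, Slc1a2 (-0.71), Anxa8 (-2.63) and Meltf (-1.74) were no longer past the threshold, while Ccn3 (-2.99) was. No fibroblast outside cluster 5 held a Meltf UMI, so that fit cannot decide on Meltf. Without cluster 1, Slc1a2 (edgeR adjusted p = 0.0584) and Meltf (edgeR adjusted p = 0.0840) were not past it.

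Against the endothelial cells of the looser gate, 6 genes were past the same threshold. Procr differed by 2.98 (2.60 in fibroblasts, -0.48 in endothelial cells). Il34, a ligand of the CSF-1 receptor, differed by -4.05 (-0.83 beside 3.28), Cd74, the invariant chain of MHC class II, by -4.73, and the phosphatase gene Dusp5 by -3.59. Anxa8 differed by -14.19 and Meltf by -12.76, again from counts near 0. Without cluster 5, Procr, Cd74 and Dusp5 were still past the threshold, Il34 was not (edgeR adjusted p = 0.130), and Anxa8 and Meltf could not be tested. Without cluster 4, Procr was not past it (1.85, edgeR adjusted p = 0.330). At the stricter endothelial gate none of the 7201 genes was past the threshold in edgeR, with 377 at an unadjusted p under 0.05, and that gate left 8 to 22 endothelial barcodes per sample. No explanation of these differences was tested.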

How the results depend on the processing

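The fibroblast share was higher in Xevinapant under all 17 alternatives, by 0.824 to 1.56 percentage points where no sample was left out and by 0.233 to 2.42 where 1 sample was. The groups overlapped when each matrix counted as 1 mouse. The count of genes past the threshold, 0 in edgeR (595 at an unadjusted p under 0.05), was 3 with each matrix as 1 mouse, 16 in DESeq2, 4 without cluster 5, led by Acan, 254 without the filter on low counts, and 0 to 8 with 1 sample left out (3 without vehicle 1 and 3, 8 without vehicle 4, 1 without Xevinapant 1 and 2, 6 without Xevinapant 3 and 4). A replicate block on the matrix number, which also counted each matrix as 1 mouse and so split the joined samples, gave 25. Samples of the same number correlated by 0.0978, 0.142, 0.127 and 0.0117 in their deviations from the group means, so the numbers were not shown to pair them, and vehicle 3 correlated more with Xevinapant 4 than with its own number. Leaving a sample out of Xevinapant leaves 1, assumed to vary like vehicle. The endothelial comparison gave 6 genes at the looser gate and 0 at the stricter one, and at the looser gate 11 without cluster 5, 7 without cluster 1 or 4 and 6 without cluster 7. The tumor cell comparison, 5 genes, gave 8 without cluster 7 or 4, 36 without cluster 5 and 3 without cluster 1. No gene with a fold change in the report was past the threshold in edgeR as reported. In the alternatives 40 values were, of which 18 came without the filter on low counts, 7 under the replicate block (Rarres2, C3, Slc16a3, Procr, Ecrg4, Hmga2 and Osr1) and 6 in DESeq2. The 49 such genes kept their direction in 1003 of 1064 values, and 29 of them under all alternatives that gave a value. The functional list medians kept their direction in 383 of 418 values and all alternatives for 11 of 19 lists. Summed counts of 293367 to 2587480 UMIs and 24 to 262 cells a sample limit what could be detected. The cause of these changes was not tested.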
